A study of Mus musculus with 4 samples.

Results

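Mature luminal (ML) cells are the hormone-sensing cells of the inner layer of the mammary duct, and they were compared here between the pubertal and the adult gland of the mouse. They were taken from 3 libraries of single mammary epithelial cells of FVB/NJ females, 1 from puberty at 5 weeks of age and 2 from adults at 10 weeks, of which 1 was in estrus and 1 in diestrus. A cell was kept as ML when at least 3 of 6 genes (Stc2, Upk3a, Plac8, Tspan1, Prlr, Cited1) had a count, at most 1 of 5 luminal progenitor (LP) genes (Cd14, Lalba, Plb1, Atp6v1b1, Aldh1a3) had one, and at most 2 of 7 basal genes (Krt5, Krt17, Acta2, Myl9, Tagln, Mylk, Cnn1) had one. The rule kept 3409 of 10596 cell barcodes: 2031 from puberty, 748 from estrus and 630 from diestrus. The genes described are those whose level in puberty lay on the same side of both adult libraries, so the values that chose them are the values reported, and they are given as a description. Each stage was 1 library of cells pooled from several mice, with fewer mice per adult library than for puberty. No test between stages was therefore possible, age cannot be told apart from animal pool or library, and the estrous phase of the pubertal mice was not given. All animals were of the same strain with no allele or treatment named, and the methods describe cells sorted as lineage-negative and CD24-positive.

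During puberty, ovarian estrogen drives the growth of ducts into the fat pad. Estrogen and progesterone receptors are found in ML cells, which signal to their neighbours with secreted factors. Amphiregulin, a ligand of the epidermal growth factor (EGF) receptor that ML cells secrete, is required for ductal growth in puberty, and RANKL (Tnfsf11) and Wnt4 carry the progesterone signal in the adult. LP cells are the other luminal lineage and can make milk proteins, and basal cells form the contractile outer layer.

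The ML cells carried the markers that the rule did not use. Summed levels, in counts scaled to a fixed library total (CPM), of Esr1, Pgr, Areg, Ly6d, Foxa1 and Ptn were 17330 in puberty, 15032 in estrus and 14624 in diestrus. Ptn, Ly6d and Areg made up nearly all of it, while Esr1, Foxa1 and Pgr were at 26.8, 52.1 and 53.4 CPM in puberty. The sums were 275, 167 and 202 in LP cells of the same libraries and 1191, 750 and 728 in basal cells. The 5 LP markers outside the rule summed to 425 CPM in puberty ML cells, 294 in estrus and 204 in diestrus, and to between 17211 and 46208 CPM in LP cells. The 5 basal markers outside the rule summed to 12.7 CPM in puberty ML cells, 30.0 in estrus and 39.0 in diestrus. In puberty 438 ML cells held the minimum of 3 ML genes, and 120 barcodes stayed outside because they held only 2. ML cells had a median of 4772 counts in puberty, 4207 in estrus and 4458 in diestrus. A second deposited puberty table held 99.2% of the same barcodes, so it was used only as a technical check: its ratios to estrus differed from those of the first by a median of 0.04 on the log2 scale. Other pairs of libraries shared 13 to 24 barcodes.

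The puberty library had 37.4% ML cells among its barcodes (95% Clopper-Pearson interval, 36.1 to 38.7). The adult shares were lower, 27.4% (25.7 to 29.1) for estrus and 25.8% (24.1 to 27.6) for diestrus. Such intervals cover counting error only, and sorting, capture and the rule can also set these shares. Cells with counts for at least 3 of 10 cell cycle genes were 8.91% of the ML cells of puberty, 8.56% of those of estrus and 10.8% of those of diestrus. With each cell thinned to 2000 counts before the rule the shares were 5.73%, 4.27% and 3.67%, so the order of the libraries turned with depth and no order is read from it.

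Counts of ML cells were summed per library, scaled with TMM factors and given as CPM, and each ratio is a log2 ratio with a pseudocount of 1 CPM, which understates the difference of low genes. Of 2968 genes with at least 50 CPM in at least 1 library, 1304 were higher in puberty than in both adult libraries (43.9%), 674 were lower than in both (22.7%), and 990 lay between them. At least 2-fold against both adult libraries, 74 genes were higher (2.49% of the genes) and 14 were lower (0.472%). The median ratio over all 2968 genes was 0.11 to estrus and 0.08 to diestrus. Without TMM factors these medians were -0.20 and -0.05, and 40 genes were higher and 25 lower, so that 61.5% of the genes past 2-fold were higher instead of 84.1%. All 40 were among the 74, and all 14 lower genes were among the 25. In the plot of both ratios the genes far from 0 on both axes lie mostly on the positive side. Zyx (1.01 and 1.02, to estrus and to diestrus) lay just inside the 2-fold limit, and Cdkn1a (0.99 and 1.16) and Fam43a (0.97 and 1.38) just outside. Among lower genes, Tph1 (-1.645 and -1.004) and Irx3 (-2.10 and -1.04) lay just inside it, and Fos (-1.31 and -0.95) and Msrb2 (-0.95 and -1.24) just outside.

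**Figure D1:**
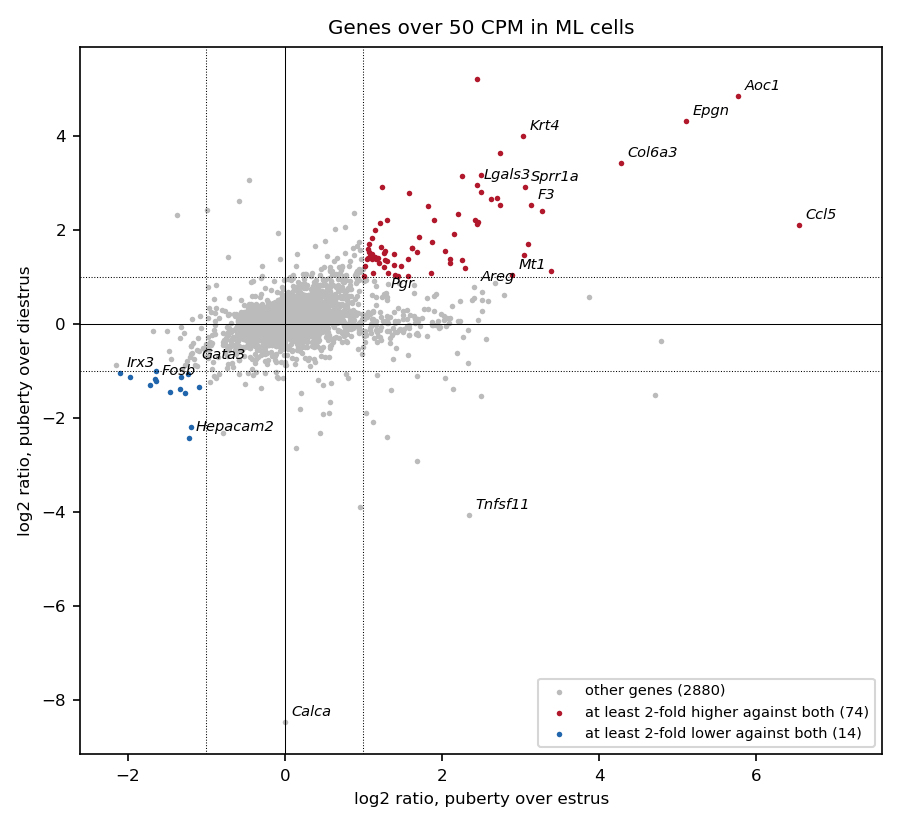
Log2 ratio of puberty to estrus (x axis) against log2 ratio of puberty to diestrus (y axis) in ML cells. Each point is 1 of 2968 genes with at least 50 CPM in a library, dotted lines mark 2-fold, and colours mark the 74 genes higher and the 14 lower against both adult libraries. Aoc1, Epgn and Col6a3 lie farthest out along both axes among the higher genes, whereas Calca and Tnfsf11 lie low on the y axis only.

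A gene under 50 CPM in both adult libraries passed the filter on level only through puberty and so had to be higher there, which was the case for 39 of the 74 higher genes. Of the 74 higher genes, 71 were also at least 2-fold higher against both adults in the second puberty table, and 50 had 95% counting intervals beyond 2-fold on both ratios. The adult libraries lay within 2-fold of each other for 65 of them. All 14 lower genes were at least 2-fold lower in the second puberty table, and 6 had both counting intervals beyond 2-fold. No gene of the rule was among them, and 4 higher genes and 1 lower gene with predicted, clone or ribosomal protein names were counted but are not described.

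The 14 higher genes with the largest ratio to the nearer adult library were of several kinds: an amine oxidase, an EGF family ligand, a collagen chain, keratins and cornified envelope proteins, the activin subunit and its antagonist, tissue factor, a water channel, a galectin, a fatty acid receptor, a histone and a milk protein. All of them but F3 and Lgals3 were under 50 CPM in both adult libraries, so they passed the filter only through puberty and had to be higher there. The genes are taken in that order of roles.

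Aoc1 encodes diamine oxidase, a secreted enzyme that breaks down histamine and putrescine, and it had the largest ratio to the nearer adult library. Its level was 108 CPM in puberty, 0.998 CPM in estrus and 2.79 CPM in diestrus, from 1057, 4 and 9 counts. The ratios were 5.77 to estrus (95% counting interval without pseudocount, 5.40 to 8.64) and 4.85 to diestrus (4.35 to 6.41). In cells thinned to 2000 counts, 6.69% of 1929 puberty ML cells had an Aoc1 count, against 0.145% of 692 in estrus and 0.339% of 590 in diestrus, and 0.124% of puberty basal cells. Without thinning the ML shares were 9.50%, 0.535% and 0.794%. The gene was thus detected in few pubertal ML cells and in almost no adult ones. The 1% of puberty ML cells richest in Aoc1, 20 cells, held 42.0% of its counts.

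Col6a3 encodes a chain of type VI collagen, a matrix protein more familiar from fibroblasts. Its level was 106 CPM in puberty, 4.49 CPM in estrus and 8.98 CPM in diestrus. It was detected in 13.9% of thinned puberty ML cells, 0.723% in estrus and 2.03% in diestrus, and in 0.371% of puberty basal cells. The summed level of 5 fibroblast markers (Col1a1, Col1a2, Col3a1, Dcn, Lum) in ML cells was 379 CPM in puberty, 221 in estrus and 814 in diestrus. Dcn made up nearly all of it, with 379 CPM, 221 CPM and 790 CPM, while Col1a2 and Lum were at 0 in puberty and Col1a1 and Col3a1 at 0.102 CPM. The part of other cells in the Col6a3 level was not tested.

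Among the EGF family genes, the 3 that passed the filter on level were ligands, Epgn, Areg and Hbegf, but Epgn and Hbegf passed only through puberty and so had to be higher there. Epgn (epigen) was at 68.0 CPM in puberty, 0.998 CPM in estrus and 2.48 CPM in diestrus, ratios of 5.11 and 4.31. It was detected in 4.30% of thinned puberty ML cells and in 1.86% of puberty basal cells. Of its counts in puberty ML cells, 54.1% lay in 20 cells. Areg (amphiregulin) was the most abundant, at 3338 CPM in puberty, 628 CPM in estrus and 1928 CPM in diestrus. Its ratio was 2.41 to estrus but 0.79 to diestrus, so it stayed under 2-fold against diestrus. Areg was detected in 78.1% of thinned ML cells at puberty, 33.5% in estrus and 65.9% in diestrus. In basal cells the shares were 7.18%, 0.428% and 2.03%. Areg was also higher in puberty in these cells, at 62.35 CPM against 5.98 in estrus and 10.8 in diestrus. In LP cells it was at 21.8, 2.77 and 7.90 CPM, so the higher puberty level was not seen in ML cells alone. The part of free RNA in the other classes was not tested. Hbegf, a ligand shed from the membrane, was at 61.2 CPM in puberty and 19.2 CPM in each adult library. It was also higher in puberty in LP cells (0.86 and 0.63) and in basal cells (0.95 and 0.50). The EGF receptor and the other ERBB genes of the list did not reach 50 CPM in any ML library.

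Sprr1a, Krt4 and Krt6a were among the 14 higher genes and are best known from stratified epithelium. No list of such genes was fixed, and Krt4, Krt6a and Sprr1a were each under 50 CPM in both adult libraries. Sprr1a, a precursor of the cornified envelope, was at 359 CPM in puberty, 42.2 CPM in estrus and 46.8 CPM in diestrus, ratios of 3.06 and 2.91. Without thinning it had a count in 13.9% of puberty ML cells, 6.55% in estrus and 4.92% in diestrus. Its counts were uneven, with 50.2% of them in 20 puberty ML cells and 70.9% in 6 diestrus ML cells. Krt4, a keratin of moist stratified epithelia, was at 54.3 CPM, 5.74 CPM and 2.48 CPM in that order. Krt6a, a keratin of hair follicles and wounded epidermis, was at 92.7 CPM, 13.0 CPM and 6.51 CPM. Puberty was far above both adults for each of these, and the adult libraries differed less from each other. Krt6a was detected in 10.6% of thinned ML cells at puberty, 1.45% in estrus and 1.69% in diestrus, and Krt4 in 6.01%, 0.578% and 0.339%. Sprr2a3, Lgals7, S100a14 and Serpinb5 were also 2-fold higher, but they were picked out after their values were seen, and genes of stratified epithelia that were not higher were not counted. Sprr2a3 was at 171 CPM in puberty, 19.2 CPM in estrus and 51.7 CPM in diestrus, with 52.4% of its puberty counts in 20 ML cells. Of its 3' end 67.7% occurs in other transcripts, so its reads may belong to related genes. The keratins typical of luminal cells were less different: Krt18 had 11612 CPM in puberty, 9055 CPM in estrus and 7052 CPM in diestrus. Krt8 (0.36 and 0.79), Krt18 (0.36 and 0.72) and Krt19 (0.35 and 0.67) were higher in puberty under 2-fold, and Krt7 (0.24 and 0.52) too, except that without TMM its ratio to estrus was -0.06.

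Inhba and Fst, of the activin system, were higher in puberty. Both were under 50 CPM in both adult libraries, so they passed the filter only through puberty and had to be higher there. Inhba, the subunit of activin A, was at 80.3 CPM in puberty, 12.2 CPM in estrus and 11.8 CPM in diestrus. Fst encodes follistatin, which binds and blocks activin, and was at 195 CPM, 33.7 CPM and 27.0 CPM. Fst was detected in 15.6% of thinned ML cells at puberty, 3.90% in estrus and 3.56% in diestrus, and Inhba in 7.31%, 2.31% and 2.37%. Basal cells had more Fst than ML cells, with a count in 42.2% of thinned puberty basal cells, and LP cells held almost none, at 1.19 CPM in puberty. Inhbb, the other activin subunit gene over the filter, was at 35.8 CPM in puberty, 50.4 CPM in estrus and 29.4 CPM in diestrus.

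F3 and Lgals3 were the abundant members, detected in most pubertal ML cells. F3 encodes tissue factor, the membrane protein that starts blood coagulation, and was at 1124 CPM in puberty, 127 CPM in estrus and 193 CPM in diestrus. Lgals3 encodes galectin 3, which binds glycans on cell surfaces, and was at 1021 CPM, 186 CPM and 130 CPM. F3 was detected in 57.2% of thinned ML cells at puberty (54.9 to 59.4), 17.9% in estrus and 28.0% in diestrus, and Lgals3 in 61.4% (59.2 to 63.6), 23.3% and 18.3%. In puberty basal cells 24.01% had F3 and 3.84% had Lgals3. Plaur, the urokinase receptor, was at 158 CPM in puberty, 33.5 CPM in estrus and 30.7 CPM in diestrus and was 2-fold higher in puberty in LP cells (2.41 and 2.15) and basal cells (2.14 and 1.95) also.

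Aqp3, a channel for water and glycerol, was at 66.7 CPM in puberty, 10.98 CPM in estrus and 6.51 CPM in diestrus. Ffar4, a receptor for long-chain fatty acids, was at 52.1 CPM, 4.49 CPM and 8.98 CPM. Hist1h2ap, a histone gene, was at 58.9 CPM, 9.98 CPM and 0.620 CPM, but all of its 3' end occurs in other transcripts, and it was as much higher in puberty in LP cells (4.08 and 4.21) and basal cells (2.94 and 5.24). Csn1s2a, a casein, was at 111 CPM in puberty, 15.7 CPM in estrus and 18.3 CPM in diestrus. LP cells held it at 19857 CPM in puberty, and its share of thinned puberty ML cells, 5.44%, was below that of basal cells, 6.44%, so no expression in ML cells is read from it. Its counts were uneven, with 76.3% of them in 20 puberty ML cells, and the part of free RNA was not tested. With cells thinned before they were chosen its ratio to estrus turned to -1.44, and 1 puberty ML cell alone held 341 of its 1083 counts.

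**Figure D2:**
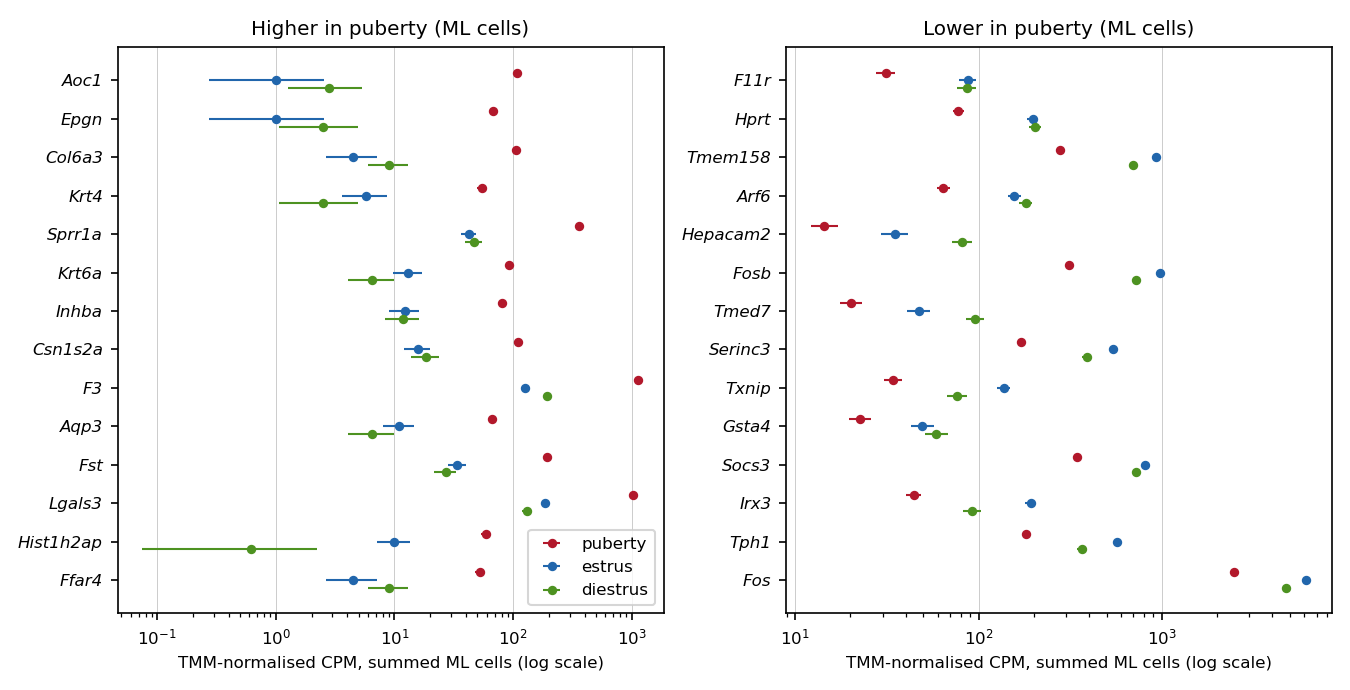
Level in summed ML cells (x axis, TMM-normalised CPM on a log scale) of the 14 genes with the largest ratio in each direction, in puberty, estrus and diestrus. Points are the value of 1 library each and bars are 95% Poisson intervals, which cover counting error only. Puberty lies to the right of both adult libraries for each of the higher genes, from Ffar4 at 52.1 CPM to F3 at 1124 CPM. It lies to the left for each of the lower ones, and the genes were chosen for these directions. Apart from F3 and Lgals3, the higher genes were under 50 CPM in both adult libraries, so they passed the filter only through puberty and had to be higher.

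Promoter sequence from RefSeq (GRCm38.p6), 250 bases before to 50 after the annotated start, was searched for TGANTCA. This motif covers TGACTCA and TGAGTCA, the usual sites of the Fos and Jun proteins (AP-1). It also takes TGAATCA and TGATTCA, so the shares are of a wider motif than those sites. The motif reads the same on both strands. Of the 14 higher genes above, 10 had a window and 3 held the motif, and of all 70 described or counted higher genes with certain names, 48 had a window and 11 held it (22.9%). Among the 2968 genes over the filter 6.31% of 2282 genes with a window held it, and 8.97% of all 27025 genes with a window. Of 9 lower genes with a window 1 held it, F11r. The motif was looked for after the values were seen, and a match in these letters is no evidence of binding. The 3 windows are shown because these genes are described above, with the motif in capitals. The windows lie at chr6:48904736-48905035 on the plus strand for Aoc1, chr3:92485832-92486131 on the minus strand for Sprr1a and chr3:121723287-121723586 on the plus strand for F3, and each is written 5′ to 3′ along its gene.
Aoc1: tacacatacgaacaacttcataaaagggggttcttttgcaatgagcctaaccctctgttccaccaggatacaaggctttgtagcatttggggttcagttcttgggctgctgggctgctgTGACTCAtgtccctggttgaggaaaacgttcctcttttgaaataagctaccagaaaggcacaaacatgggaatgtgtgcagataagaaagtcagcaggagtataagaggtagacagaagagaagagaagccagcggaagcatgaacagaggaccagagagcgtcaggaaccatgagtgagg
Sprr1a: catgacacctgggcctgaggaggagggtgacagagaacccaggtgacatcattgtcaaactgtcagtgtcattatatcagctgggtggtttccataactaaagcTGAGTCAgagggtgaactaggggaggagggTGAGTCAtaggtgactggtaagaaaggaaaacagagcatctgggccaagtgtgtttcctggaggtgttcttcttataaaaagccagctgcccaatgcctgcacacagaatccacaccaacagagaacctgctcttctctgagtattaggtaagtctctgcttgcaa
F3: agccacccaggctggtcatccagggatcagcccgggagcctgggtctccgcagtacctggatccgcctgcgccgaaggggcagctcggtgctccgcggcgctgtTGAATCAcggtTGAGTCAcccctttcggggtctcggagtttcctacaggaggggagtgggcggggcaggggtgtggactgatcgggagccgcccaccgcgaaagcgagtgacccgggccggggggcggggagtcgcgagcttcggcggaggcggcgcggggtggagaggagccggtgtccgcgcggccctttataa
Aoc1 held 1 copy, and F3 and Sprr1a held 2 copies each. The first copy in F3 is TGAATCA, and all the others shown are TGACTCA or TGAGTCA. The first copy began 131 bases before the annotated start in Aoc1 and 146 bases before it in Sprr1a and in F3.

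The other 56 higher genes with certain names had smaller ratios to the nearer library, down to 1.01 for Zyx, and are grouped here by role after their values were seen. Surface proteins included Cd24a, the antigen used in sorting these cells, at 1525 CPM in puberty, 516 CPM in estrus and 585 CPM in diestrus. Sdc1 (syndecan 1), a heparan sulfate proteoglycan, was at 222 CPM, 68.4 CPM and 76.5 CPM, and Tspan13, a tetraspanin, at 767 CPM, 367 CPM and 287 CPM. Cd24a was higher in puberty in ML cells (1.56 and 1.38) but not in LP cells (0.00 and -0.11). Among thinned basal cells the share with a Cd24a count was also highest in puberty, 52.5% against 46.0% in estrus and 35.7% in diestrus. Gpx3, a secreted glutathione peroxidase, was at 3921 CPM in puberty, 1501 CPM in estrus and 1393 CPM in diestrus. Its share of thinned ML cells with a count was 71.4% in puberty, 77.9% in estrus and 75.3% in diestrus, so the larger sum came from more counts per cell and not from more cells. Tmed3, which carries cargo out of the endoplasmic reticulum, was at 2545 CPM in puberty, 594 CPM in estrus and 1033 CPM in diestrus.

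Signalling and transcription genes among the 56 included Sox9, a transcription factor, at 564 CPM in puberty, 245 CPM in estrus and 230 CPM in diestrus. Id2, an inhibitor of helix-loop-helix factors, was at 80.9 CPM, 21.5 CPM and 37.5 CPM. Errfi1, a feedback inhibitor of the EGF receptor, was at 262 CPM, 93.4 CPM and 110 CPM, and Tnfrsf12a, the receptor for TWEAK, at 585 CPM, 222 CPM and 243 CPM. Ido1, which degrades tryptophan, was at 218 CPM in puberty, 91.6 CPM in estrus and 28.2 CPM in diestrus. Sphk1, which makes sphingosine-1-phosphate, was at 159 CPM, 63.9 CPM and 61.7 CPM, and Agps, an enzyme of ether lipid synthesis, at 206 CPM, 45.4 CPM and 53.6 CPM. Cytoskeletal and trafficking genes such as Zyx, Csrp1, Tubb2a, Lmo7 and Ehd1 were also in the set, with ratios to the nearer library between 1.01 and 1.62.

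Ccl5 shows how few cells can carry a sum. This chemokine was at 139 CPM in puberty, 0.499 CPM in estrus and 31.6 CPM in diestrus, but its 1354 counts in puberty lay in 20 of 2031 ML cells, 1 of which held 439. In diestrus 1 cell held 101 of its 102 counts. Immune markers (Ptprc, Cd74, Laptm5, Tyrobp, Cd52) summed to 3.07 CPM in puberty ML cells, with Ptprc and Laptm5 at 0. When each gene's richest 1% of ML cells in each library was set aside, an alternative chosen after seeing the data, Ccl5 had no counts left, and 71 of the 74 higher genes stayed at least 2-fold higher. The genes lost were Ccl5, Dgki (0.96 and 1.07) and Id2 (1.84 and 0.90). The other 3 cytokines over the filter were also higher in puberty than in both adults, as were 43.9% of all genes. Il33, an alarmin, was at 510 CPM in puberty, 276 CPM in estrus and 99.1 CPM in diestrus. Cxcl15 was at 455 CPM, 119 CPM and 291 CPM, and Cxcl17 at 192 CPM, 101 CPM and 86.7 CPM.

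The 14 genes at the head of the lower side held a serotonin enzyme, stress and feedback genes, a transcription factor, and membrane and trafficking proteins. Tph1, the rate-limiting enzyme of serotonin synthesis outside the brain, was at 183 CPM in puberty, 573 CPM in estrus and 367 CPM in diestrus. It was detected in 14.5% of thinned ML cells at puberty, 37.7% in estrus and 30.8% in diestrus. Irx3, an Iroquois homeobox factor, was at 44.2 CPM in puberty, 192 CPM in estrus and 92.3 CPM in diestrus, so the adult libraries also differed by 2-fold. Tmem158, a membrane protein first known from cells with active Ras, was at 280 CPM, 925 CPM and 693 CPM, and its share of thinned ML cells was 32.9%, 76.2% and 61.9%. Hepacam2, an adhesion protein, was at 14.4 CPM, 34.9 CPM and 81.5 CPM.

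Socs3, a feedback inhibitor of cytokine signalling, was at 345 CPM in puberty, 812 CPM in estrus and 722 CPM in diestrus. Txnip, which binds thioredoxin, was at 34.2 CPM, 137 CPM and 76.2 CPM, and Gsta4, a glutathione transferase, at 22.6 CPM, 49.4 CPM and 58.9 CPM. F11r, the junctional adhesion molecule A, was at 31.1 CPM in puberty, 87.1 CPM in estrus and 86.1 CPM in diestrus. Hprt, of the purine salvage pathway, was at 77.6 CPM, 198 CPM and 204 CPM. The adult libraries lay close together for both, and both were lower in puberty in LP cells (F11r -1.51 and -1.40, Hprt -1.16 and -1.54) and basal cells (F11r -1.23 and -0.91, Hprt -1.55 and -1.64). Arf6, a small GTPase of endocytosis, Serinc3, a membrane protein, and Tmed7, a cargo receptor, had ratios of -1.27 and -1.48, -1.65 and -1.18, and -1.19 and -2.19. For Tmed7, 33.3% of the 3' end occurs in other transcripts.

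Fosb and Fos belong to the immediate early genes, transcription factors and feedback genes that cells switch on within minutes of a stimulus. Fosb was at 313 CPM in puberty, 978 CPM in estrus and 723 CPM in diestrus, and Fos at 2474 CPM, 6136 CPM and 4779 CPM. Of the 18 immediate early genes over the filter, 12 were lower in puberty than in both adults and 4 were higher, against 22.7% lower and 43.9% higher over all genes. 1 of the 18 was 2-fold lower against both, against 0.472% of all genes. The median ratio was -0.97 to estrus and -0.51 to diestrus, against 0.11 and 0.08 over all genes. Jun (-1.12 and -0.90), Egr1 (-1.27 and -0.88) and Klf2 (-1.44 and -0.74) were among the lower ones. Myc (1.16 and 0.82), Ier5 (0.65 and 0.79), Ier3 (0.46 and 0.26) and Klf4 (0.22 and 0.47) were the higher ones, of which Myc passed the filter only through puberty, and without TMM the ratio of Klf4 to estrus was -0.08. The same 18 genes had medians of -1.004 and -0.27 in LP cells and -1.32 and -0.84 in basal cells, so the lower levels ran through the libraries and not ML cells alone. Heat shock genes did not move with them as a list (10 genes, medians of 0.20 and -0.20), although Hspa1a was at 184 CPM in puberty, 817 CPM in estrus and 336 CPM in diestrus.

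Hormone receptors and their cofactors held no gene past 2-fold against both adults among 6 over the filter. Over all genes 2.49% were 2-fold higher and 0.472% lower, so none among so few genes is near that share. Pgr was at 53.4 CPM in puberty, 21.7 CPM in estrus and 34.1 CPM in diestrus (1.26 and 0.63), detected in 7.93%, 5.06% and 7.12% of thinned ML cells. It passed the filter only through puberty and so had to be higher there. Gata3, a luminal transcription factor, was at 103 CPM, 228 CPM and 191 CPM (-1.14 and -0.88). Foxa1 was at 52.1 CPM, 79.6 CPM and 58.9 CPM, and Esr1, the estrogen receptor, was at 26.8 CPM, 23.96 CPM and 23.2 CPM, below the filter. Among the secreted mediators of hormone action, Tnfsf11 was at 4.10 CPM in puberty, 0 in estrus and 84.0 CPM in diestrus, and Calca, the calcitonin gene, had no count in puberty or estrus and was at 352 CPM in diestrus. Both genes were thus high in diestrus alone. Wnt4 was at 42.4 CPM, 41.7 CPM and 67.2 CPM, and Ptn (pleiotrophin) at 9500 CPM, 10297 CPM and 10016 CPM.

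Among the remaining gene lists, cytoplasmic ribosomal protein genes had a median ratio of 0.93 to estrus and 0.02 to diestrus (81 genes, 1 of them 2-fold higher against both). Nuclear genes of oxidative phosphorylation had 0.78 and 0.08 (72 genes, none past 2-fold). Over all genes 2.49% were 2-fold higher against both and 0.472% lower. Both lists stood near the same values in LP cells (0.86 and 0.16 for ribosomal proteins) and basal cells (0.79 and -0.06). Of 9 mitochondrially encoded genes 8 were higher in puberty, against 43.9% of all genes, and none by 2-fold, against 2.49%, with medians of 0.42 and 0.49, and without TMM the ratios of mt-Co1, mt-Nd4 and mt-Cytb to estrus were -0.06, -0.03 and -0.02. The median mitochondrial share of counts per ML cell was 1.10% in puberty, 0.988% in estrus and 0.770% in diestrus.

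Mt1, a metallothionein that binds zinc and copper, was at 4828 CPM in puberty, 650 CPM in estrus and 2335 CPM in diestrus, and Mt2 at 2587 CPM, 403 CPM and 1412 CPM. Mt1 was higher in puberty in LP cells (2.55 and 1.42) and basal cells (2.37 and 0.99) as well. In the list of glycolysis and hypoxia genes 7 of 9 were higher in puberty and none lower, against 43.9% and 22.7% over all genes, with medians of 0.17 to estrus and 0.77 to diestrus and with Ldha (0.67 and 0.77), Aldoa (0.42 and 0.78) and Hif1a (0.96 and 1.11) under 2-fold against at least 1 adult library. Without TMM the median of that list was -0.13 to estrus. Of the S phase genes 9 passed the filter and of the G2 and M phase genes 7, and none was 2-fold different against both adults. Over all genes 2.49% were 2-fold higher and 0.472% lower, so none among so few genes is near that share. Milk protein and alveolar genes had medians of 0.92 to estrus and 1.65 to diestrus (5 genes). The 2 of them that were 2-fold higher against both adults, Csn1s2a and Csn2, passed the filter only through puberty. With cells thinned before the rule the median of this list to estrus turned to -0.37. Genes of the extracellular matrix and adhesion had medians of 0.47 and 1.30 (6 genes, 2 of them 2-fold higher, against 2.49% of all genes). Of these 6 genes Itga6 passed the filter only through puberty and had to be higher there. The 4 genes of the TGF-beta and BMP list had medians of -0.10 and 0.72, and of these Id2 passed only through puberty. No gene of the IGF axis or of the axon guidance list reached 50 CPM in ML cells.

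**Figure D3:**
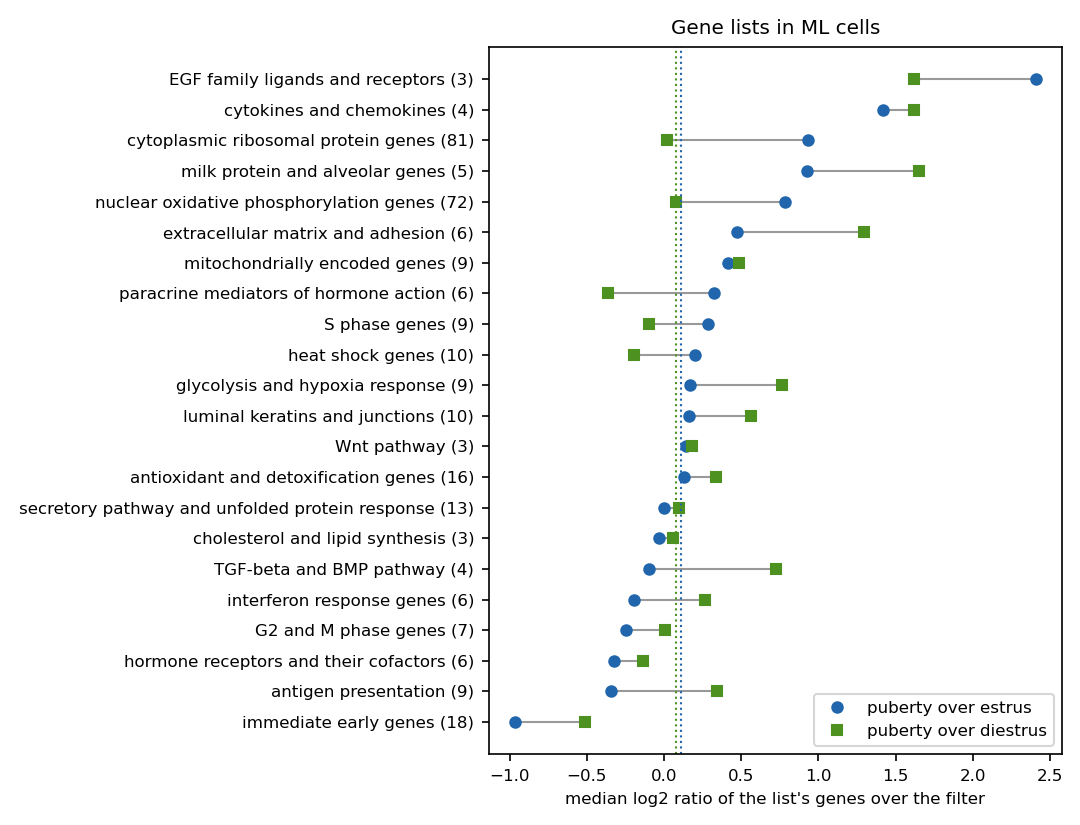
Median log2 ratio of puberty to estrus (circles) and to diestrus (squares) over the members of each gene list that passed the filter in ML cells, with the number of members in brackets. Dotted lines are the medians over all 2968 genes, 0.11 and 0.08. The immediate early genes (18 genes) lie to the left on both ratios, and the ribosomal protein genes lie right of the line for estrus only. The EGF family (3 genes), the cytokines (4 genes) and the milk protein and alveolar genes (5 genes) lie to the right on both, but Epgn, Hbegf, Ccl5, Csn1s2a and Csn2 among them passed the filter only through puberty and had to be higher. With cells thinned before the rule the median of the milk protein and alveolar genes to estrus was -0.37.

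The same genes were read in LP and basal cells, which were chosen by mirrored rules. Of the 74 higher genes, 40 reached 50 CPM in LP cells, where 32 were higher in puberty than in both adults, 13 by 2-fold, and 1 was lower than in both. Of all 2785 genes with 50 CPM in LP cells, 43.4% were higher than in both, 2.55% by 2-fold, and 20.3% lower, 0.395% by 2-fold. In basal cells 41 reached it, of which 32 were higher, 17 by 2-fold, and 4 were lower. Of all 3168 genes with 50 CPM in basal cells, 37.8% were higher, 2.05% by 2-fold, and 25.0% lower, 0.915% by 2-fold. The classes share their libraries, so LP and basal cells are not independent of ML cells. Of the 14 lower genes, 9 reached 50 CPM in LP cells (6 lower, 3 by 2-fold, 1 higher) and 11 in basal cells (9 lower, 3 by 2-fold, none higher). F3 was at least 2-fold higher in puberty in LP cells (1.91 and 1.98) and basal cells (1.82 and 2.50). Lgals3, by contrast, was at 500 CPM in puberty LP cells with ratios of -0.05 and 1.57. Aoc1, Epgn, Col6a3, Krt4, Krt6a, Sprr1a, Inhba, Aqp3 and Ffar4 stayed under 50 CPM in LP and basal cells of every library. Below that level, Aqp3 was higher in puberty in LP cells, at 37.0 CPM against 3.46 in estrus and 3.64 in diestrus. In basal cells it was at 27.8 CPM against 1.07 and 2.43. Epgn had 22 counts in puberty LP cells against 0 and 1, and 47 in basal cells against 6 and 9. The others reached at most 3.97 CPM in either class, too low to read a ratio. No gene past 2-fold in ML cells was 2-fold different in the opposite direction in LP or basal cells.

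**Figure D4:**
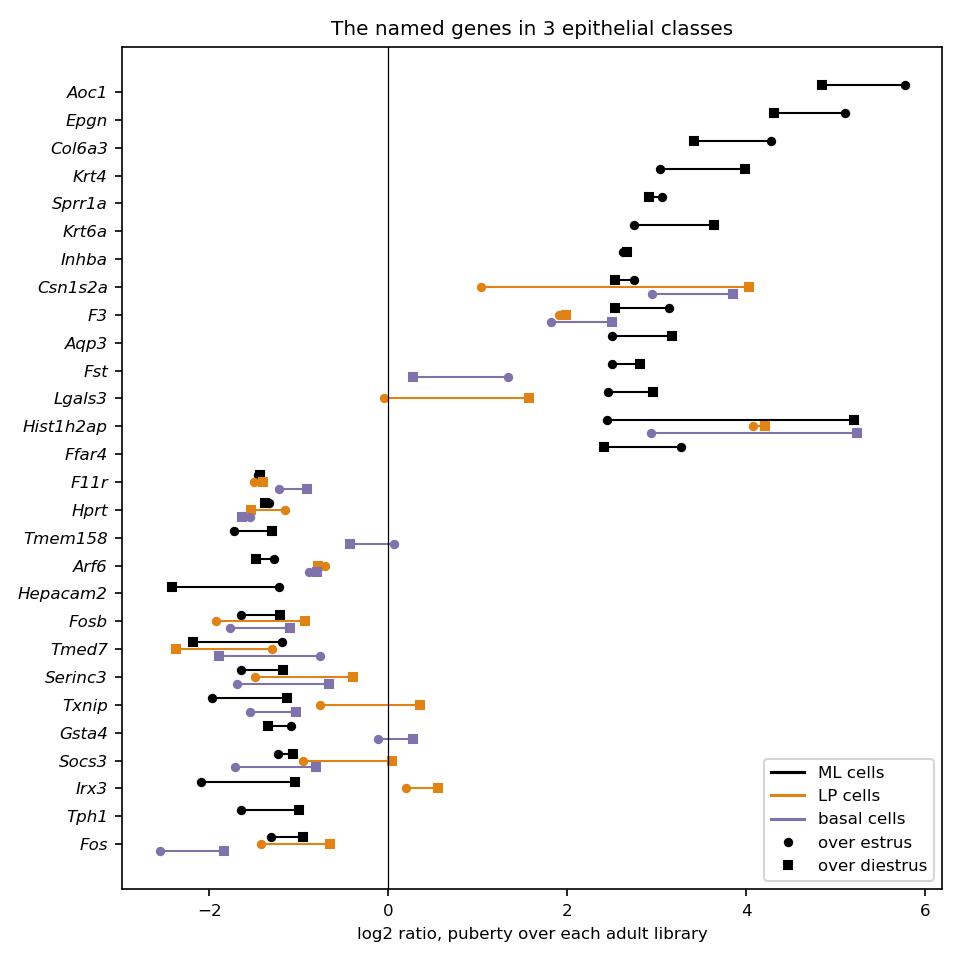
Log2 ratio of puberty to estrus (circles) and to diestrus (squares) of the 28 genes in ML, LP and basal cells, each pair joined by a line. LP and basal cells are drawn only where the gene reached 50 CPM in that class. F3, Csn1s2a, Hist1h2ap, F11r, Hprt, Arf6, Fosb, Tmed7, Serinc3 and Fos lie on the same side of 0 in all 3 classes, whereas Irx3 lies left of 0 in ML cells and right of it in LP cells.

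Within puberty, the higher genes did not all fall in the same ML cells. The pairs were chosen after the values were seen, all cells were thinned to 2000 counts, and the cells come from 1 library, so the shares are a description. Cells with an Aoc1 count (130 of 1929) more often had a count of Col6a3 than cells without, 37.7% (29.3 to 46.6) against 11.2% (9.81 to 12.8). They also more often had Gpx3 (96.2% against 69.3%), Tmed3 (98.5% against 85.4%) and Cd24a (92.3% against 78.9%). They less often had Plaur (6.15% against 18.4%), Sdc1 (12.3% against 26.3%) and Fst (6.92% against 15.8%). Inhba was also less frequent, but its intervals overlap, 2.31% (0.478 to 6.60) against 7.23% (6.07 to 8.52). Krt6a hardly differed (9.23% against 10.7%). Cells with a Plaur count, 339 of 1929, showed the opposite: 5.01% had Col6a3, against 14.7% of cells without Plaur, and 56.6% had Gpx3, against 74.2%. They more often had Fst (27.7% against 12.5%), Inhba (13.0% against 5.60%), Krt6a (18.3% against 8.99%) and Sdc1 (38.9% against 22.5%). F3 and Lgals3 were common on both sides. F3 was in 67.7% of cells with Aoc1 against 58.7% without, and in 71.7% with Plaur against 56.7% without. Lgals3 was in 63.8% against 61.4% for Aoc1, and in 70.8% against 59.6% for Plaur. Tph1 and Fos, lower in puberty as a whole, were detected in 6.78% and 59.3% of cells with Plaur, against 15.3% and 77.9% of cells without, and in 20.8% and 77.7% of cells with Aoc1. Before thinning, cells with an Aoc1 count had a median of 5628 counts, cells with Plaur 5522, and all other cells in the 2 splits 4870 and 4776.5.

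**Figure D5:**
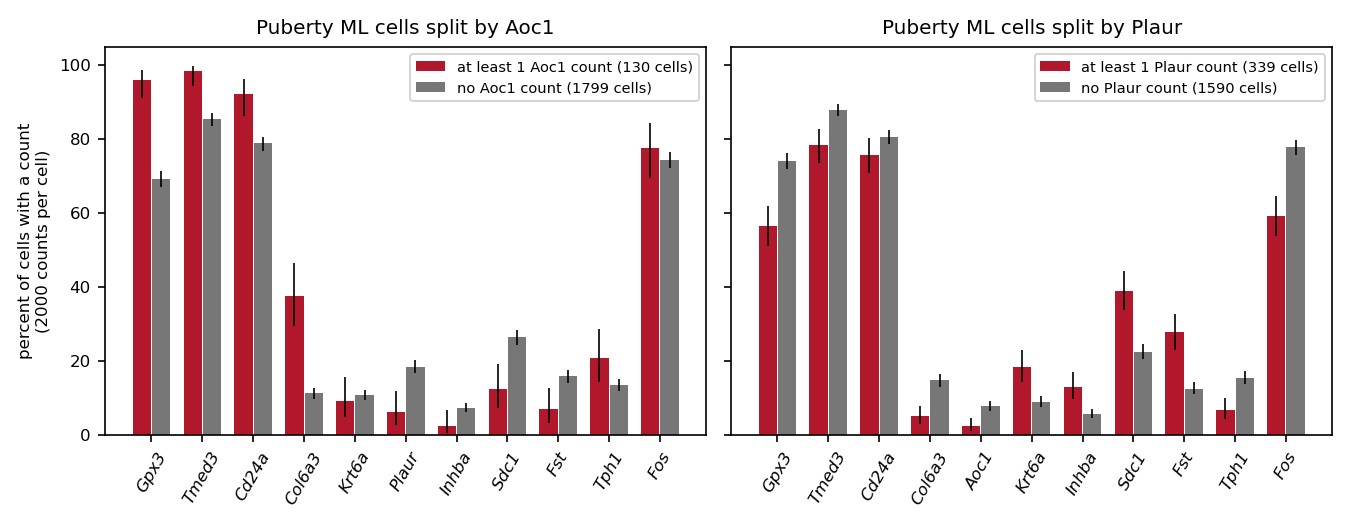
Percent of puberty ML cells with a count of each gene (y axis), in cells with and without a count of Aoc1 (left) and of Plaur (right), after thinning to 2000 counts per cell. Bars are shares of cells and whiskers 95% Clopper-Pearson intervals, which cover counting error only. Col6a3, Gpx3 and Tmed3 are more frequent with Aoc1 and less frequent with Plaur, and Inhba, Sdc1 and Fst the reverse. The intervals of Inhba overlap in the split by Aoc1.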

How the data were processed

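Single cells were captured with the 10x Genomics Chromium 3' chemistry, which reads the 3' end of transcripts, and sequenced on a NextSeq 500. Per the submitters' processing notes the authors made the deposited counts with Cell Ranger 2.0 on mm10. Each deposited value is a whole-number count of molecules per gene and barcode, not normalized, and the barcodes were used as deposited. Libraries held between 10962454 and 25365324 counts, which limits the precision of low genes. The second puberty table, of the same cells, held 16679840 counts. Doublets were not called: the rule leaves out cells with several genes of another lineage, and cells over 2 times the median ML total were left out in an alternative.

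Counts of ML cells were summed per library and scaled by TMM (edgeR 4.0.16, R 4.3.3), with factors of 0.908 for puberty, 1.12 for estrus and 0.987 for diestrus. With 1 library per stage no model was fitted and no p-value computed. Genes with at least 50 CPM in 1 of the 3 sums were kept, and those at least 2-fold different in the same direction against both adult libraries were counted. Intervals are exact 95% Poisson, conditional binomial or Clopper-Pearson intervals. LP cells had at least 3 of the 5 LP genes and basal cells at least 4 of the 7 basal genes, with few genes of the others. Thinning drew 2000 counts per cell, leaving out shallower cells (102 ML cells in puberty, 56 in estrus, 40 in diestrus). Named genes were the 14 with the largest ratio to the nearer adult library in each direction, without genes of the rule and uncertain names. Members, lists and tests were chosen with earlier results of these data known. Gene positions came from GENCODE M21, and a gene's last 400 transcript bases were compared with other genes' transcripts in words of 50 bases. The steps were tested on simulated data. Alternatives were no TMM, median-of-ratios factors, a pseudocount of 5 CPM, a filter at 20 CPM or none, the second puberty table, thinning before the rule, a stricter rule (4 ML genes, no LP gene, at most 1 basal gene), the mean over cells, and sums without cycling or high-count cells. Some genes are counted but not reported here.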

Additional observations from a re-analysis of the deposited data

Results flagged for a closer look

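In 5 genes that were at least 2-fold different in ML cells, another class with at least 50 CPM had the opposite direction against both adult libraries. Whether the difference between classes exceeds the spread between animals was not tested, since each stage was 1 library. Id2 was higher in puberty in ML cells (1.87 to estrus and 1.09 to diestrus) and had ratios of -0.70 and -0.04 in LP cells and -0.37 and -0.08 in basal cells. Irx3 was lower in ML cells (-2.10 and -1.04) and had ratios of 0.20 and 0.56 in LP cells. Prkcdbp, a caveolar protein, was higher in ML cells (1.31 and 2.22) and had ratios of -0.50 and -0.09 in basal cells. S100a14 was higher in ML cells (1.11 and 1.84) and had ratios of -0.20 and -1.85 in basal cells. Serpinb5, the protease inhibitor maspin, was higher in ML cells (1.12 and 1.08) and had ratios of -0.47 and -0.29 in basal cells. For Id2, Irx3, Prkcdbp and S100a14 at least 1 of the opposite ratios was under 0.25 in size on the log2 scale.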

How the results depend on the processing

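The count of 74 higher genes ranged from 70 to 111 under the alternatives other than no TMM, which gave 40, and no filter, which gave 257. The count of 14 lower genes ranged from 11 to 19 except without TMM (25), without a filter (65) and in the second puberty table (22). The shift without TMM follows from its factors. For the second table the cause was not tested. Similar counts did not always hold the same genes. With cells thinned before the rule, 58 of the 72 higher genes were among the 74, and 11 of the 17 lower genes were among the 14. Under the other alternatives apart from no TMM, at least 67 of the 74 higher genes were kept. The share of ML cells was 24.2% in puberty, 18.3% in estrus and 16.8% in diestrus under the stricter rule, 29.7% in estrus after thinning and 36.02% in the second puberty table. The cycling share after thinning was 5.73%, 4.27% and 3.67%. Of the ratios of the 28 named genes, 1 changed sign (Csn1s2a to estrus, -1.44 after thinning), and 9 fell under 2-fold, all among Txnip, Gsta4, Socs3, Irx3 and Tph1. The medians of the gene lists were less stable. Of 576 list medians recomputed under the alternatives, 75 moved by at least 0.25 on the log2 scale and 46 changed sign. These include the sums without each gene's richest cells. Detection shares without thinning were larger, as for Aoc1 in puberty (9.50%). No paired analysis was possible because each stage had 1 library. Depth limits the adult side of the lowest genes most: Aoc1 and Epgn had 4 counts each in estrus.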
